A study of Homo sapiens with 6 samples.

Results

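The core of the Hippo pathway was examined here at the level of chromatin: the 10 genes YAP1, WWTR1, LATS1, LATS2, STK3, STK4, SAV1, MOB1A, MOB1B and NF2. Each gene's locus was taken as its span on GRCh38 plus 10 kb on either side, and every peak overlapping it was used. These 10 are among 20037 protein-coding genes of the reference table. Their loci held 406 of the 507440 regions obtained by merging the 6 peak lists wherever peaks shared at least 1 bp.

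The samples were 6 ATAC-seq libraries of the established human line NCI-H1703, labelled as lung squamous cell carcinoma. ATAC-seq uses a transposase that cuts open DNA, so that a peak marks accessible chromatin. Of these, 3 (silenced) were made after silencing of DLGAP1-AS2, a long non-coding RNA, and 3 (control) from control cells, numbered 1 to 3 in each group. Every library was made from 10000 to 50000 cells of this 1 line, and the title of the series ties DLGAP1-AS2 to phosphatidic acid synthesis and YAP signalling. The question addressed here was whether accessibility at the genes of the pathway differed between the groups. The labels name neither the control reagent nor separate cultures, so the p-values below measure the spread between these libraries, which may be technical. Peak lists do not measure RNA, so the degree of silencing was not checked.

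In the Hippo pathway, the kinases STK3 (MST2) and STK4 (MST1), held by the scaffold SAV1, activate the kinases LATS1 and LATS2, which act together with the adaptors MOB1A and MOB1B. NF2 (merlin) is a membrane-associated activator of this cascade. LATS kinases phosphorylate the co-activators YAP1 and WWTR1 (TAZ), which are then kept in the cytoplasm or degraded. Unphosphorylated YAP1 and WWTR1 enter the nucleus and bind TEAD transcription factors. The cascade thus controls YAP1 and WWTR1 largely at the protein level, whereas ATAC-seq reports on the chromatin of their genes.

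The DNA just upstream of 4 gene starts is printed because these starts span the range of accessibility described below, from the most open (NF2) through WWTR1 to the 2 least open (YAP1 and SAV1). Each run holds the 250 bases before the annotated start on the gene's strand, from the RefSeq promoter table of GRCh38.p14. Capitals mark matches to GGAATG (TEAD core), GGGCGG (GC box) or CCAAT (NF-Y core) on either strand.
YAP1, chr11:102110197-102110446, plus strand: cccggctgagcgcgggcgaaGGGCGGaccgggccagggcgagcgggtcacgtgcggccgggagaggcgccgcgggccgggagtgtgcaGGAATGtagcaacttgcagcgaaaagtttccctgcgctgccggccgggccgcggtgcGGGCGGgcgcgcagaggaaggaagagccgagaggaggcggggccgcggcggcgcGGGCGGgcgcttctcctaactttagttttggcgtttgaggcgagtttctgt
WWTR1, chr3:149658026-149658275, minus strand: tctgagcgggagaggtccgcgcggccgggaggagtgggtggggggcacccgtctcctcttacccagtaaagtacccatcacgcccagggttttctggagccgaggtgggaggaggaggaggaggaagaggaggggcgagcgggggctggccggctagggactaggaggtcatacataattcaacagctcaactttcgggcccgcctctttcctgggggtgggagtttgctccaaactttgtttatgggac
NF2, chr22:29603306-29603555, plus strand: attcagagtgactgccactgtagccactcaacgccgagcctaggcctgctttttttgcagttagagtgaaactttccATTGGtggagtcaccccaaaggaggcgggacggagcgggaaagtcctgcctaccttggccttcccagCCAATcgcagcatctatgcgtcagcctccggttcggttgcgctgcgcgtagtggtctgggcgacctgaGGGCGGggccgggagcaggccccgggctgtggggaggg
SAV1, chr14:50668307-50668556, minus strand: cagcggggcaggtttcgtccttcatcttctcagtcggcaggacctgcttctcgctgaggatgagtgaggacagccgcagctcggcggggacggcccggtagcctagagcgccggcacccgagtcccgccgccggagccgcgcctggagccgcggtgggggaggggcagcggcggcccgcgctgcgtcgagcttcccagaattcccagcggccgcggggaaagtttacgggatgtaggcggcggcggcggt

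The YAP1 stretch held 1 TEAD core, with its first base at −162 from the start, and 3 GC boxes. The NF2 stretch held 1 GC box and 2 NF-Y cores, and none of the searched motifs was present in the WWTR1 or SAV1 stretch. The full windows run from 250 bases before to 50 bases after the start, and 9 of the 10 genes, all except STK3, had such a window. The motifs searched on both strands were those 3 together with TGANTCA for AP-1, GCATGCGC for the NRF1 core, AAGATGGCG for the YY1 core and CCGGAAG for ETS factors, and none holds another whole. Motifs were counted in the 11 windows of these 9 genes that overlapped the merged region taken as the gene's start. WWTR1 and LATS1 each had 1 other window, outside that region, which held none of the motifs. The windows of all genes, given for comparison, were not limited in this way. The 2 NF2 windows overlap and hold the same GC box and NF-Y cores. A TEAD core was present in 2 of the 11, at YAP1 and at LATS2, where it began at base 10 after the start, and in 12.2% of the 22199 protein-coding windows of the table. GC boxes were present in 8 of the 11 windows, at 7 genes, and in 56.3% of all windows. NF-Y cores were present in 4 of the 11, at MOB1A, MOB1B and NF2, and in 34.7% of all windows. AP-1 motifs lay in 2 of the 11, at LATS1 and MOB1B (6.15% of all windows), and an ETS motif in 1, at STK4 (12.8%). The NRF1 core (3.74%) and the YY1 core (2.41%) were in no member window. The YAP1 window was rich in G+C (70.7%, with 40 CpG), against medians of 62.33% and 21 CpG over all windows. It was not alone in this: the SAV1 window and 1 of the 2 NF2 windows each had 72% with 39 CpG. The other NF2 window had 65% with 27 CpG, and the WWTR1 window in its start region 63% with 18 CpG. These matches describe letters in the windows and not bound sites.

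The number of sequenced reads is not given in the sources used here, so depth is unknown, and the lists differed in length and background. The lists held 91346 to 170882 peaks on the chromosomes. Background coverage, the smallest background behind any peak of a list, ran from 0.237 in silenced replicate 3 to 0.464 in control replicate 2, with the other 4 libraries at 0.369 to 0.402. Of 8 squamous markers, only SOX2 had a peak at a gene end (within 1 kb) in all 6 libraries, KRT6A and TRIM29 had none in any, and TP63 had heights of at most 5. All 4 mesenchymal markers and 3 of 4 adenocarcinoma or alveolar markers (NKX2-1 among them) had such a peak in all 6, as did 2 of 4 epithelial and 1 of 4 neuroendocrine markers, 0 of 4 immune markers and 0 of 3 endothelial markers. TP63 had such a peak in 4 libraries, and KRT5, KRT14, DSG3 and PKP1 in at most 2 each. Low heights were not limited to TP63. Among markers with a peak in all 6 libraries, the lowest height was 3 at FN1 and 5 at NAPSA, SFTPC and KRT8. It was 16 at NKX2-1 and 24 at VIM. The share of all genes with such a peak is not given here, so the marker counts do not name a cell type. Peaks farther from the gene ends were not counted for the markers.

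Most of the pathway's gene starts were open in every library. A gene-start region, the merged region overlapping the promoter window, was called in all 6 libraries for 9 of the 9 genes with a window, against 59.0% of 15843 protein-coding genes with one. Of the 406 member regions, 48 (11.8%) were called in all 6 libraries, against 7.35% of all regions, and 263 (64.8%) were called in 1 library only, against 74.1% of all regions. Of the 48, 9 were the genes' own starts. Another 4 covered the starts of the neighbouring genes KATNA1, TOMM34, BOLA3 and DCK, and 35 overlapped no promoter window.

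Heights below are the authors' pileup values, and at a given site they rise with the number of reads. A scaled height is the height divided by the library's median over the 37284 regions called in all 6 libraries. These medians were 16, 18 and 10 in silenced replicates 1 to 3 and 17, 19 and 17 in control replicates 1 to 3. Heights before scaling therefore tend to be lowest in silenced replicate 3. NF2 had the most accessible start, at a median scaled height of 7.27 over the 6 libraries, followed by WWTR1 (4.21), MOB1A (3.48), STK4 (2.63), MOB1B (2.59), LATS1 (1.86), LATS2 (1.80), YAP1 (1.03) and SAV1 (0.705). Among neighbours in this order, the 6 values did not overlap between NF2 and WWTR1, between MOB1A and STK4, or between MOB1B and LATS1. They overlapped for every other neighbouring pair. By rank of fold enrichment over the local background, the order differed. NF2 stood at the 98.6th percentile of shared regions on average, MOB1A at 95.6, MOB1B at 89.1, STK4 at 87.3, WWTR1 at 76.3, LATS1 at 67.2, LATS2 at 60.6, SAV1 at 34.0 and YAP1 at 29.6.

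**Figure D1:**
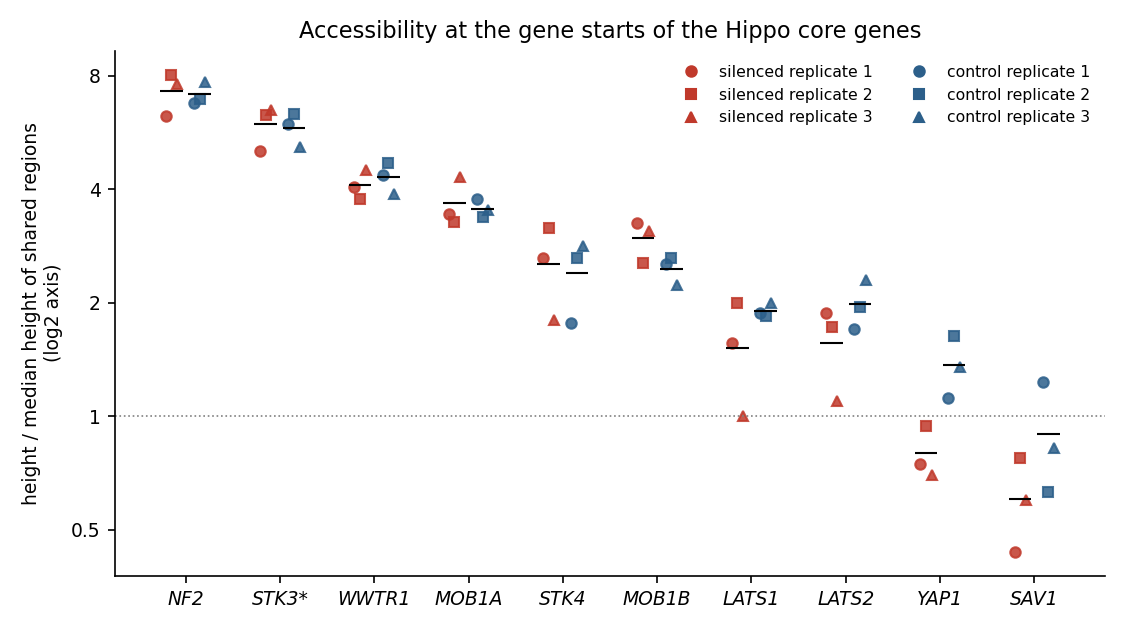
Scaled height of each gene-start region (height divided by the library's median over shared regions, log2 axis) in the 3 silenced (red) and 3 control (blue) libraries, with group means as black bars and 1 as a dotted line. STK3* is the tallest region inside the STK3 span, since no gene-start region was assigned. NF2 is highest, and at YAP1 all 3 silenced libraries lie below all 3 control libraries.

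Paralogues were compared by the height of their starts, which rises with local background. The WWTR1 start was taller than the YAP1 start in 6 of 6 libraries, by 2.87 to 6.43 times (median 3.95). The background behind peaks lay at the 82.0th percentile of loci for WWTR1 and the 5.66th for YAP1. Fold enrichment over background differed less, at 10.9 to 12.5 for the WWTR1 start and 4 to 8.70 for the YAP1 start. It was higher at WWTR1 in every library. The part of background in the height ratio was not tested. The MOB1A start was taller than that of MOB1B in 6 of 6 libraries, by 1.06 to 1.58 times. By fold enrichment MOB1A was lower in silenced replicate 1 (17.7 against 18.3) and higher in every other library. LATS1 and LATS2 had no common order, with a ratio of 0.833 to 1.16 and LATS1 taller in 2 of 6 libraries.

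The comparison of silenced with control cells found no member region past the threshold. Fold enrichment was ranked within each list over the 37284 shared regions, turned into normal scores and tested with limma, with Benjamini-Hochberg adjustment over all regions. With this test 0 of the 48 member regions reached an adjusted p under 0.05, and 0% of all shared regions did. The smallest adjusted p among the 48 was 0.963. Without adjustment, 0 of the 48 had p under 0.05, where 2.7% of all shared regions did with the silenced group lower and 1.98% with it higher. The score difference, silenced minus control, was below 0 in 24 regions and above 0 in 24, with a median of 0.01 against 0.01 over all shared regions. Scaled heights of the groups did not overlap in 5 member regions with the silenced group lower (4.65% of all shared regions) and in 2 with it higher (5.04% of all shared regions). The 5 lay at YAP1, WWTR1, STK4, MOB1A and NF2, 1 at each locus, and the 2 at LATS2 and NF2.

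**Figure D2:**
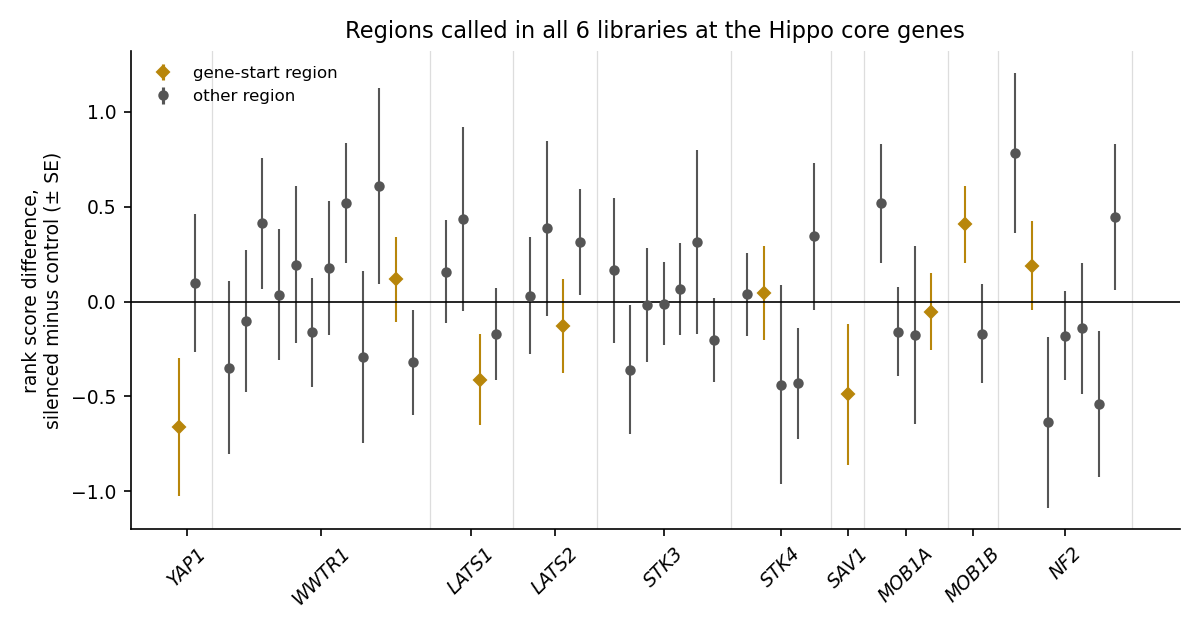
Difference in rank score (silenced minus control, in normal-score units, with its standard error from limma) for each of the 48 regions called in all 6 libraries, ordered by position within each gene. Gold diamonds are gene-start regions and grey circles the others. The values run from −0.66 at the YAP1 start to 0.79 at a region upstream of NF2, and none passed the adjusted threshold.

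YAP1, the co-activator for which the pathway's output is usually named, had the lowest score difference of the 48. Its start region (chr11:102109876-102110729) also overlaps the start of the divergent transcript YAP1-DT, and had heights of 12, 17 and 7 in silenced replicates 1 to 3 and 19, 31 and 23 in control replicates 1 to 3. The groups did not overlap, and all 3 silenced heights were lower. The scaled height averaged 0.798 ± 0.129 with silencing and 1.37 ± 0.257 in control cells (SD, n = 3 each), 1.71 times higher in control. The score difference was −0.66 with a standard error of 0.36, which did not pass the threshold (limma, adjusted p = 0.963). The lowest height lay in the library with the lowest background coverage and the highest in the library with the highest; without those libraries the score difference was −0.45 (adjusted p = 0.974 with limma). A neighbouring region inside the gene (chr11:102110918-102111740), centred 882 bp after the start, had heights of 18, 15 and 9 in silenced and 20, 20 and 18 in control libraries. Its scaled heights overlapped between groups, averaging 0.953 in silenced and 1.10 in control libraries. Its score difference was 0.10 with a standard error of 0.36, so the groups did not separate there as at the start. A further region, chr11:102111929-102112259, centred 1647 bp after the start, was called in 3 of 3 control libraries at heights of 14, 11 and 12. Among silenced libraries it was called only in replicate 1, at a height of 10. No other YAP1 region was called in all 6 libraries, out of 38 regions at the locus.

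WWTR1 encodes TAZ, the paralogue of YAP1. Its start region (chr3:149657409-149658756, also at the start of WWTR1-AS1) had heights of 65, 68 and 45 in silenced and 74, 89 and 66 in control libraries. Scaled to the library they overlapped, at 4.11 ± 0.364 and 4.31 ± 0.403 (SD, n = 3 each), and the score difference was 0.12 with a standard error of 0.22. The start itself thus gave no sign of a difference larger than the spread.

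Unlike the start, the downstream stretch of WWTR1 carried 2 of the 3 regions of these loci that were called in every library of either group and absent from the other lists. Inside the span, chr3:149534850-149535167 was called in all 3 control libraries at heights of 12, 13 and 12 and in no silenced library. A nearby region, chr3:149527855-149528110, was called at heights of 11, 13 and 11 in the control libraries and again in no silenced library. They lie 123017 and 130043 bp after the start. These were the 2 member regions called in 3 of 3 control and 0 of 3 silenced libraries, a pattern shown by 0.2% of all merged regions. No test was run on the calls of single regions, for which an exact permutation test of 3 against 3 libraries cannot go below 0.1.

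Both WWTR1 regions were taller than most regions of this kind. The lowest height of either in a control library was 11, and the median of the lowest control height over the 1016 control-only regions of the genome was 4. Of these 1016, 63 (6.20%) had a height of at least 11 in all 3 control libraries, a limit set by the WWTR1 regions themselves after the values had been seen, so the share is a description with no test. Height rises with local background, and the fold enrichment of the WWTR1 regions over it was 3.35 to 4.96.

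**Figure D3:**
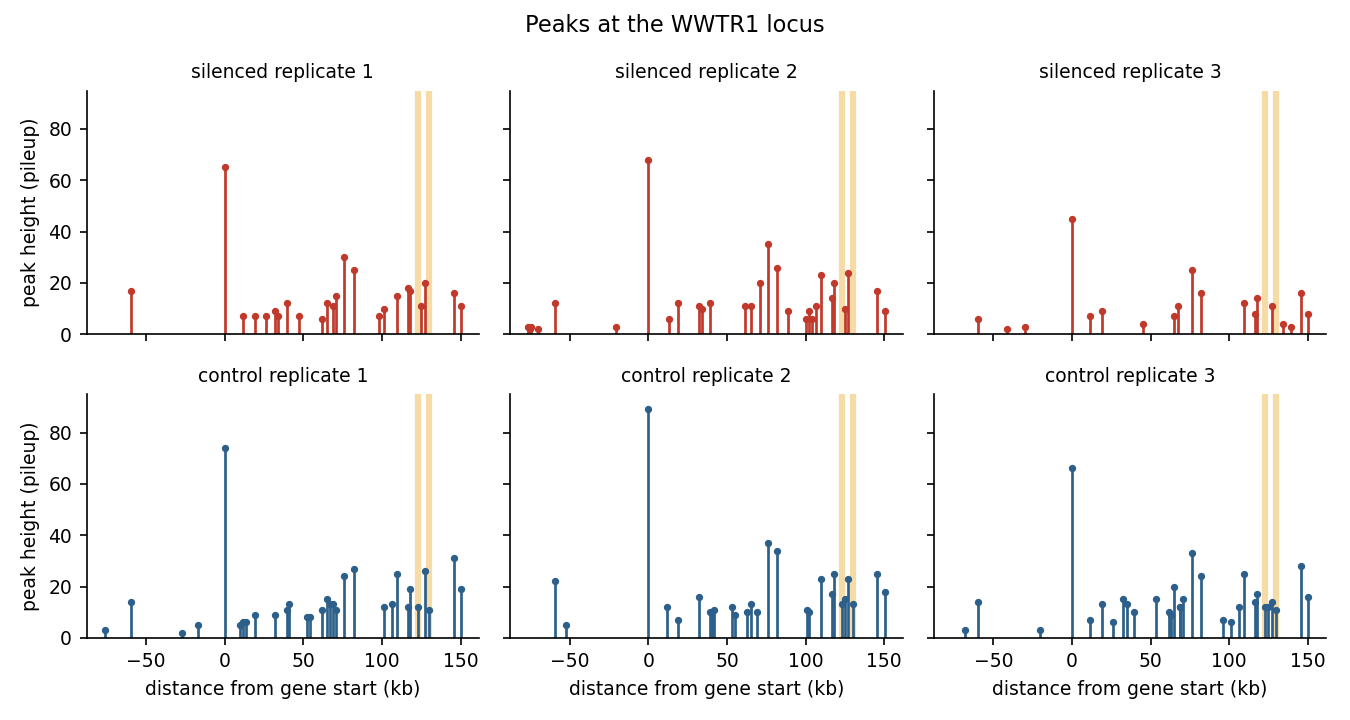
Peaks at the WWTR1 locus in each library, with the distance of the region's midpoint from the gene start (kb, positive into the gene) on the horizontal axis and the height (pileup) on the vertical axis. Gold bands mark the 2 regions called in all 3 control and no silenced library; the peak at 0 is the gene start.

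The WWTR1 locus as a whole carried 24, 30 and 23 peaks in silenced and 33, 29 and 33 in control libraries. The groups overlapped, at 25.7 ± 3.79 and 31.7 ± 2.31 peaks (SD, n = 3 each). As a share of each list, on the scale log2 of peaks plus 0.5 per 100000 peaks, the difference was −0.42 with a standard error of 0.26 (limma over 16797 protein-coding loci, adjusted p = 0.997). List length differed between libraries, and with every list reduced to the 91346 peaks of lowest p-value the counts were 22, 23 and 20 in silenced and 30, 29 and 30 in control libraries. These did not overlap, and the log2 difference was −0.45 with a standard error of 0.09, past an unadjusted threshold of 0.05 and not past the adjusted one (limma, adjusted p = 0.597). Of all loci tested on lists of equal size, 3.54% had p under 0.05 with the silenced group lower and 2.76% had no overlap in that direction. Among peaks with an FDR of at most 1e-05, WWTR1 had 9, 10 and 7 in silenced and 11, 13 and 15 in control libraries, again without overlap (limma, adjusted p = 0.674), a pattern held by 2.72% of loci. The difference at WWTR1 had 1 direction in all 3 counts and passed the adjusted threshold in none. The shorter lists are parts of the full lists, so a shared direction is not repeated support. At every other member locus tested, the groups overlapped in the shorter lists.

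Of the 60 WWTR1 regions, 6 (10%) were called in at least 2 control and 0 silenced libraries and 0 the other way, against 2.17% and 2.23% of all merged regions. The 6 include the 2 control-only regions above. Regions called in 1 library cannot meet this pattern. They were 28 of the 60 at WWTR1 and 74.1% of all merged regions, so these shares have unlike bases. At the 3′ flank, chr3:149512257-149512622 had heights of 16, 17 and 16 in silenced and 31, 25 and 28 in control libraries, without overlap before scaling and with overlap after it. Further on, chr3:149507114-149508325 had 11, 9 and 8 in silenced and 19, 18 and 16 in control libraries, and its scaled heights did not overlap, with a score difference of −0.35 and a standard error of 0.46. The 2 tallest shared regions inside the gene overlapped between groups. The taller, chr3:149581656-149582258, had heights of 30, 35 and 25 in silenced and 24, 37 and 33 in control libraries, and chr3:149575475-149576555 had 25, 26 and 16 in silenced and 27, 34 and 24 in control libraries. The local background at WWTR1 was high: the background behind its peaks was 4.97 to 6.24 times the library's floor, at the 82.0th percentile of 14039 loci, against the 5.66th percentile for YAP1. The part of this background in the counts was not tested.

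Among the kinases, LATS1 and LATS2 directly phosphorylate YAP1 and WWTR1. The LATS1 start (chr6:149717380-149718488) had heights of 25, 36 and 10 in silenced and 32, 35 and 34 in control libraries. The low value came from silenced replicate 3, and the groups overlapped. The LATS2 start (chr13:21061226-21061978) had heights of 30, 31 and 11 in silenced and 29, 37 and 39 in control libraries, again with the low value in silenced replicate 3. The score differences were −0.41 with a standard error of 0.24 and −0.13 with a standard error of 0.25. A region centred at −8175 bp from the LATS2 start (chr13:21069485-21070038) was 1 of the 2 member regions whose scaled heights were all higher in silenced libraries, with heights of 17, 19 and 11 against 13, 15 and 14. Inside LATS2, chr13:21033977-21035079 had 19, 19 and 11 against 20, 19 and 22. Near LATS1, chr6:149723831-149724204 had 22, 20 and 16 against 33, 24 and 19, with overlap.

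STK3 and STK4 are the upstream kinases. STK3 has the longest span, 598.6 kb, and no region could be assigned to its start, since it had no promoter window and no region shared by the libraries lay within 1 kb of an end of the span. Its tallest region, chr8:98825318-98826320, lay in the interior of the span, and whether it covers a start of STK3 could not be told. It had heights of 81, 113 and 65 in silenced and 101, 120 and 88 in control libraries, a score difference of −0.01 with a standard error of 0.22. The next, chr8:98944086-98945086, overlaps the span of OSR2 and had 67, 57 and 33 in silenced and 67, 96 and 70 in control libraries. The STK4 start (chr20:44966089-44967006, shared with STK4-DT) had heights of 42, 57 and 18 in silenced and 30, 50 and 48 in control libraries, with overlap and a score difference of 0.05. Of the 5 shared regions of STK4, chr20:45061311-45061843 inside the gene had 11, 12 and 5 against 13, 15 and 14, with all silenced values lower before and after scaling. Its score difference was −0.43 with a standard error of 0.29, which did not pass the threshold.

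SAV1, the scaffold that joins these kinases to LATS, had the lowest median scaled height of the 9 starts, with values overlapping those of YAP1, which ranked lower by fold enrichment. Its only shared region (chr14:50667773-50668958) had heights of 7, 14 and 6 in silenced and 21, 12 and 14 in control libraries, and the groups overlapped. The adaptors were more open. The MOB1A start (chr2:74178343-74179400) had heights of 55, 59 and 43 in silenced and 64, 64 and 60 in control libraries, which separated before scaling and overlapped after it. The MOB1B start (chr4:70901727-70903021) had 52, 46 and 31 in silenced and 43, 50 and 38 in control libraries, with overlap. Its score difference of 0.41, with a standard error of 0.21, gave the smallest unadjusted value of the 48 in the test and did not pass (limma, adjusted p = 0.963). MOB1B also held the 1 member region called in 3 of 3 silenced and 0 of 3 control libraries (chr4:70948933-70949208), at a height of 3 in each, near the lowest a peak can have in these lists. That pattern was shown by 0.13% of all merged regions.

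NF2, the membrane-associated activator, had the tallest start of the 9. The region (chr22:29603103-29603950) had heights of 100, 145 and 76 in silenced and 115, 132 and 131 in control libraries, with overlap and a score difference of 0.19. Inside the gene, chr22:29621632-29622450 had 30, 38 and 25 in silenced and 43, 52 and 46 in control libraries, and all silenced values were lower before and after scaling. Its score difference was −0.18 with a standard error of 0.24. In the opposite direction, chr22:29597388-29598009, centred at −5858 bp from the NF2 start, had 9, 8 and 5 against 6, 5 and 5 and the highest score difference of the 48, 0.79 with a standard error of 0.42 (limma, adjusted p = 0.963). At the downstream flank, chr22:29702243-29702777 had 30, 25 and 11 against 20, 19 and 24, with overlap.

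At 4 loci the tall shared regions included the start of a neighbouring gene. The KATNA1 start, below LATS1, had heights of 40, 44 and 10 in silenced and 31, 37 and 28 in control libraries, and the TOMM34 start, beside STK4, had 39, 51 and 16 against 41, 43 and 42. The BOLA3 start, below MOB1A, had 27, 26 and 15 against 31, 43 and 33, with all silenced values lower before and after scaling and a score difference of −0.16 with a standard error of 0.24. The DCK start, beyond MOB1B, had 32, 49 and 11 against 31, 41 and 46. In each of these the lowest value was that of silenced replicate 3. That library had the lowest background coverage and the lowest median height over shared regions, 10 against 16 to 19 in the others. A further region below MOB1A, chr2:74151486-74151772, had 11, 17 and 4 in silenced and 9, 17 and 19 in control libraries, with overlap.

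The number of peaks per locus likewise gave no call. With limma 0 of the 10 loci reached an adjusted p under 0.05, as did 0% of the 16797 loci tested, and 0 had an unadjusted p under 0.05, against 2.67% of all loci. The log2 difference was below 0 at 6 genes and above 0 at 4, with a median of −0.12 against −0.09 over all loci, of which 59.4% were below 0. STK3 carried the most peaks, with 47, 48 and 31 in silenced and 47, 30 and 48 in control libraries. YAP1 carried 13, 12 and 9 in silenced and 16, 4 and 14 in control libraries, where the value of 4 came from control replicate 2, the library with the shortest list. NF2 had the lowest log2 difference (−0.50, standard error 0.33), with 10, 10 and 9 peaks against 12, 10 and 17, and MOB1B the highest (0.42, standard error 0.36), with 9, 8 and 8 against 7, 3 and 8. LATS1, LATS2, STK4, SAV1 and MOB1A lay between, at −0.47, −0.13, 0.22, 0.13 and −0.45. Each adjusted p was 0.997.

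**Figure D4:**
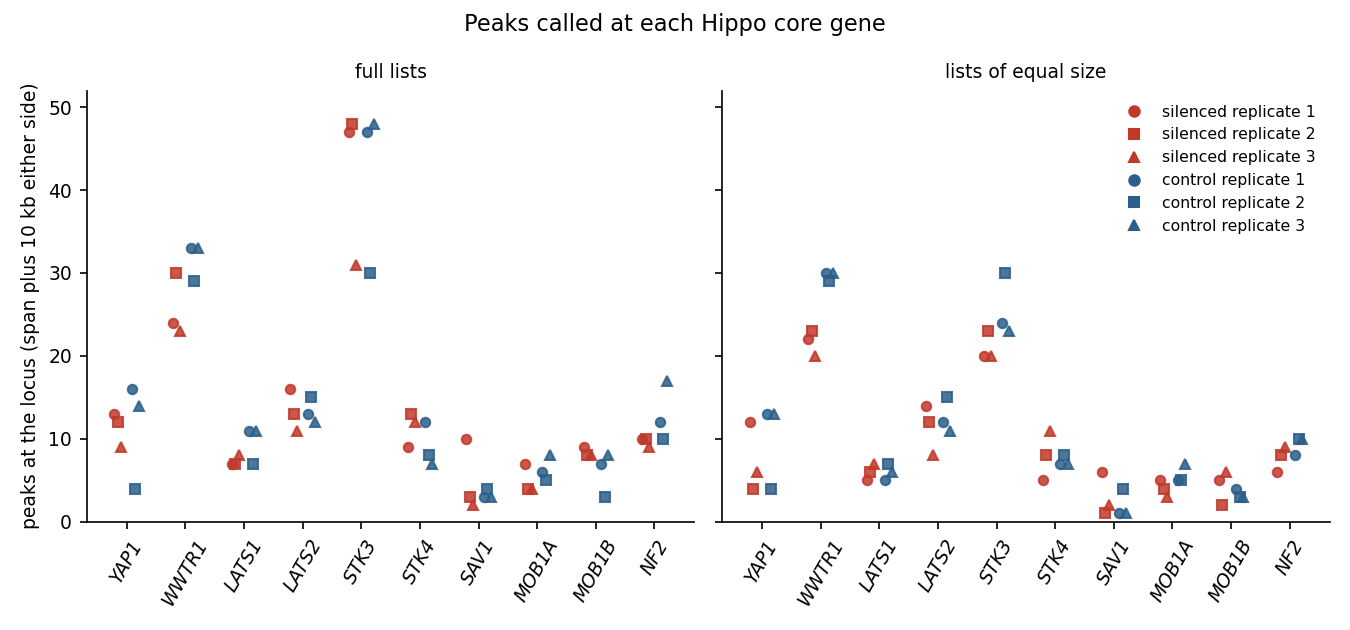
Peaks at each locus (gene span plus 10 kb on either side) in the 3 silenced (red) and 3 control (blue) libraries, from the full lists (left) and from lists reduced to the size of the shortest by p-value (right). At WWTR1 the groups overlap on the left, at 23 to 30 and 29 to 33 peaks, and separate on the right, at 20 to 23 and 29 to 30.

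Other genes of the pathway were taken from a list of 51, among them the TAOK and MAP4K kinases that act beside STK3 and STK4, the AMOT family and PTPN14 that bind YAP1, polarity proteins, and the STRIPAK phosphatase complex that opposes STK3 and STK4. Of these, 41 had a gene-start region in all 6 libraries, and with limma 0 passed the adjusted threshold (smallest adjusted p 0.963). Without adjustment, 3 had p under 0.05 with the silenced group lower (MAP4K5, MINK1 and LLGL1), where 2.7% of all shared regions did, and 1 with it higher (CSNK1E), where 1.98% did. In those 3 the lowest height, 12, 4 and 15 respectively, was that of silenced replicate 3, the library with the lowest background coverage, whose part in the result was not tested. The median score difference of the 41 was 0.002. The polarity gene LLGL1 had heights of 50, 52 and 15 in silenced and 70, 56 and 67 in control libraries, with a score difference of −0.70 and a standard error of 0.23. By peaks per locus 0 of 51 passed and the median log2 difference was −0.05. Without adjustment 2 STRIPAK-associated genes had p under 0.05, both higher in silenced libraries: MOB4, with 6, 6 and 4 peaks against 3, 1 and 2, and STK26, with 3, 7 and 4 against 3, 2 and 1. Their 51 loci held 1452 regions, of which 3 were silenced-only and 4 control-only, against 0.13% and 0.2% of all merged regions. For the DNA-binding partners TEAD1 to TEAD4 and the cofactor VGLL4, 3 start regions were called in all 6 libraries and 0 passed, and the log2 difference in peaks was below 0 at 5 of 5 loci, where 59.4% of all loci were, with a median of −0.18 against −0.09 and an adjusted p of 0.997 at the smallest.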

How the data were processed

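The authors deposited 1 peak list per library. Per the submitters' processing notes the tools were Trimmomatic 0.36, Bowtie2 2.2.6, Picard 2.8.2, MACS2 2.1.1 and bedtools 2.25.0, with the build GRCh38. Per the file headers each peak has a fold enrichment (a ratio), a p-value, an FDR and a pileup signal, the height. For 463801 peaks with p above 1e-04 the deposited p-value equalled, within a relative difference of 4.62e-05, the Poisson tail at the background (height + 1) / fold − 1. How read ends were shifted for the transposase is not given in the sources used here.

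Peaks on the chromosomes were merged at 1 bp, the strongest peak standing for a region in a library. Gene spans and promoter windows came from RefSeq tables of GRCh38.p14, in which all 10 members were found, and exons were not used here. Differences were fitted with limma 3.58.1 (lmFit and eBayes with a trend) in R 4.3.3, without the replicate number, and adjusted by Benjamini-Hochberg over all features; loci needed at least 12 peaks. The procedure was also run on simulated data, and the outcome is not given here. The size of difference that 3 against 3 libraries could show is therefore not stated. The titles number the replicates, and same-numbered libraries did not deviate together (correlations of −0.00196, 0.00238 and −0.00829). An exact permutation test of 3 against 3 cannot go below 0.1 and was not used. The named items were all 10 members with their gene-start regions, up to 2 other shared regions each by median height, and every region called in 1 group only. The regions named at the WWTR1 3′ flank and 5′ of NF2 were chosen after their values were seen. The members and lists were chosen with earlier results of these data known.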

Additional observations from a re-analysis of the deposited data

How the results depend on the processing

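The counts of member regions and of member loci past the threshold stayed at 0 under every alternative run, including the replicate block and each left-out library (smallest adjusted p with limma 0.776 for gene-start regions and 0.597 for loci). Ranked by p-value or by height, the YAP1 start gave −0.816 and −0.600 (standard errors 0.339 and 0.220). Fitted as log2 scaled heights without ranking, it gave −0.772 (standard error 0.279), a difference in log2 units. The adjusted p with limma was 0.974, 0.971 and 0.989. Without adjustment, 1, 2 and 1 of the 48 member regions had p under 0.05 in these runs. The shares over all regions in these runs are not given here. With the replicate block the YAP1 start had a score difference of −0.661 and WWTR1 a log2 difference in peaks of −0.423; the block changed no call, and no silenced library correlated best with the control library of its own number (0 of 3).

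The count of silenced-only member regions went from 1 to 0 with equal lists, when limited to FDR 1e-05 and when limited to heights of 4 and above, and ranged from 1 to 3 when each library was left out. Control-only member regions became 1 instead of 2 when limited to FDR 1e-05 and ranged from 3 to 8 when each library was left out. Leaving out silenced replicate 3 and control replicate 2 together, an alternative chosen after seeing the data, gave 4 and 9. Fewer libraries make these patterns easier to meet. At WWTR1 alone the control-only count was 2 to 4 without single libraries.

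Signs turned at several members, among them LATS1 and MOB1A, whose log2 differences in peaks of −0.469 and −0.452 were among the largest of the 10 loci, and the cause was not tested. Ranked by p-value or by height, the WWTR1 start gave −0.0544 and −0.0898 and the MOB1A start 0.000412 and 0.0190. Fitted as log2 scaled heights, the WWTR1 start gave −0.0656 and the MOB1A start 0.0381. Ranked by p-value or height, the NF2 start gave −0.0434 and −0.0730. For peaks per locus, YAP1 gave −0.389 with equal lists and −0.0129 without the flank. Limited to FDR 1e-05, LATS1 gave 0.333, LATS2 0.293, STK3 0.323 and MOB1A 0.116. These are differences in the share of each list. The limited list held 24487 peaks in silenced replicate 3 and 33511 to 37323 in the other libraries. MOB1B, with 2 peaks in every library, gave 0.237. MOB1A had fewer such peaks on average in silenced (3.33) than in control libraries (3.67), so these signs do not follow the peak counts alone. Limited to heights of 4 and above, LATS2 gave 0.166 and STK4 −0.0782. Without silenced replicate 3 and control replicate 2, the sign turned at the NF2 start (−0.0723) and at the YAP1, LATS2 and STK3 loci (−0.224, 0.228 and 0.0281). It held at the STK4 and MOB1A starts (0.393 and −0.199) and the SAV1 locus (0.821), where single left-out libraries turned it.

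With single libraries left out, the score difference ranged from −0.831 to −0.491 at the YAP1 start, −0.0456 to 0.232 at WWTR1, −0.232 to 0.228 at STK4, −0.183 to 0.0549 at MOB1A and −0.0195 to 0.406 at NF2. The log2 difference in peaks ranged from −0.227 to 0.259 at YAP1, −0.551 to −0.190 at WWTR1, −0.334 to 0.251 at LATS2, −0.159 to −0.0269 at STK3, −0.0706 to 0.449 at STK4 and −0.421 to 0.542 at SAV1.

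Read depth is unknown and heights rise with it, so a region absent from a list is below the limit of calling and not shown to be closed. Most member regions were called in a single library.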
